A study of Homo sapiens with 12 samples.

Results

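Collagen chains are hydroxylated and folded in the endoplasmic reticulum before they are secreted, and 8 genes of that route were followed in pancreatic cancer cells in normoxia and hypoxia, with and without knockdown of ARNT. They were the prolyl 4-hydroxylase subunits P4HA1, P4HA2 and P4HB, the lysyl hydroxylases PLOD1, PLOD2 and PLOD3, the lysyl oxidase family member LOXL2, and the disulfide oxidase ERO1A. The genes were chosen by name, with earlier results of these data known. Their gene IDs were matched to symbols, and all 8 were found among the 57820 gene IDs listed and were among the 16999 genes tested. PLOD2 held 1 to 12 counts per library in 3 of the 4 groups and passed the filter on low counts only through hypoxia siControl. The splicing files listed 48 events in these genes among 56092 events in all.

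AsPC-1, an established human cell line grown from a pancreatic cancer, was the source of all RNA, which was sequenced in 12 samples, 3 (replicates A, B and C) in each of 4 groups. In every group the cells were transfected with Lipofectamine RNAiMAX, either with siControl, a scrambled siRNA, or with siARNT, which targets ARNT, and were divided on the following day. Hypoxia siControl and hypoxia siARNT were then held at 1% O2 for 24 h, while normoxia siControl and normoxia siARNT stayed at 21% O2. All cells were harvested 48 h after transfection, so the normoxia groups had been transfected and divided as well. Nothing in the labels says whether replicates were separate passages of the line, and p-values therefore measure the spread between these samples.

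The libraries were made from poly(A) RNA, were stranded, and held 38.53 to 84.34 M gene counts. Levels are given as CPM, which are read counts per library size after TMM scaling, a method that sets libraries side by side through the bulk of their genes. ARNT itself, the constant partner of the hypoxia-inducible factors (HIFs), stood at 60.7 to 72.2 CPM in the 6 siControl libraries and at 12.8 to 16.0 CPM in the 6 siARNT libraries. Epithelial markers were high (KRT8 at 1180 CPM or more in every library), and 8 of 9 fibroblast markers, both matched endothelial markers and 2 of 3 immune markers stayed under 1 CPM in all 12 libraries (CD3E was at 0 in all of them). The exceptions were the fibroblast marker LUM and the immune marker CD68, whose highest value was 1.02 CPM. LUM rose with hypoxia in siControl (log2 fold change 0.44, edgeR adjusted p 0.00546) and was lower with siARNT in hypoxia (-0.49, edgeR adjusted p 0.00258), as several members were. The fibroblast markers summed to 402 to 456 CPM in normoxia siControl, 568 to 594 in hypoxia siControl, 336 to 407 in normoxia siARNT and 366 to 469 in hypoxia siARNT, and their part in the results was not tested. The epithelial markers summed to 3690 to 4210, 3740 to 4750, 5200 to 8070 and 4090 to 5680 CPM in the same order. The libraries also differed in how their levels tilted with the GC content of genes. This tilt ran from a slope of -0.21 to 0.424 log2 units per 10 points of GC, and normoxia siARNT B stood highest.

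Collagen is made as a chain whose prolines and lysines are hydroxylated in the endoplasmic reticulum. Prolyl 4-hydroxylase gives the triple helix its stability, and it is built from a catalytic alpha subunit (P4HA1 or P4HA2) and the beta subunit P4HB, which is also the protein disulfide isomerase PDI. The lysyl hydroxylases PLOD1, PLOD2 and PLOD3 prepare the sites for sugars and for the later cross-links that LOXL2 and its relatives form outside the cell, and ERO1A reoxidises PDI so that it can go on making disulfide bonds. Both kinds of hydroxylase use oxygen as a substrate, several of these genes are known HIF targets, and stiff collagen is a hallmark of pancreatic tumours.

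HIFs bind DNA at a short core that reads ACGTG or GCGTG. The 250 bases before the RefSeq start of each gene were searched for both words on both strands, and a sequence was at hand for 7 of the 8 members. The word ACGTG was found upstream of P4HA1 (1 match), PLOD2 (2 matches) and ERO1A (1 match), and not in the windows of P4HA2, P4HB, PLOD1 and PLOD3. Across 35116 promoters of the same length, 18.5% held ACGTG. The word GCGTG was found upstream of PLOD1 (2 matches), PLOD2, ERO1A and P4HB (1 match each) and in 32.2% of all promoters. The 4 windows printed here are those of the 3 genes with ACGTG and that of PLOD1, which held GCGTG only, and capitals mark either word on either strand.

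P4HA1 promoter: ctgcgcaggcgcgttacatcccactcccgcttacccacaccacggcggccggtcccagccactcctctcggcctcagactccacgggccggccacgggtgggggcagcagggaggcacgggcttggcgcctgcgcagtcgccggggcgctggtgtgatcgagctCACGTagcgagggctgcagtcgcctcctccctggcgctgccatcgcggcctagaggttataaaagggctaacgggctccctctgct
PLOD2 promoter: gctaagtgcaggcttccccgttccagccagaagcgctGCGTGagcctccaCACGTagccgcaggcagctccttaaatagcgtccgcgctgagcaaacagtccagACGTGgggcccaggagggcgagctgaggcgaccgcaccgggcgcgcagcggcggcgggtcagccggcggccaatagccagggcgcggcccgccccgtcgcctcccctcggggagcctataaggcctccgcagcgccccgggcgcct
ERO1A promoter: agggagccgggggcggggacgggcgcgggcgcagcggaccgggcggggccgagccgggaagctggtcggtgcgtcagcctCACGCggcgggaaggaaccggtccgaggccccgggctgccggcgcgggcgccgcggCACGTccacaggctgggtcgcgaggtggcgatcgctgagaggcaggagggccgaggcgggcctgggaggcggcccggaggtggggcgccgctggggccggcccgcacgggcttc
PLOD1 promoter: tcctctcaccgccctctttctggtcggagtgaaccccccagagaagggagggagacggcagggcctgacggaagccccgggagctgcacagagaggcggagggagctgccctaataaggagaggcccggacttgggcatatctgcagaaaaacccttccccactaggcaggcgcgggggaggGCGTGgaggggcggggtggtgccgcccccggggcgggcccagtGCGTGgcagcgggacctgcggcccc

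These sequences are from RefSeq on GRCh38.p14, at chr10:73096867-73097116 (minus strand) for P4HA1, chr3:146161185-146161434 (minus strand) for PLOD2, chr14:52695559-52695808 (minus strand) for ERO1A and chr1:11934467-11934716 (plus strand) for PLOD1. The ACGTG of P4HA1 began 86 bases before the RefSeq start of the gene and lay on the opposite strand. In PLOD2 the word lay at 200 bases (opposite strand) and at 146 bases (same strand), and in ERO1A at 114 bases (opposite strand). By the gene bounds of GENCODE 29 the windows of PLOD1, PLOD2, PLOD3, P4HA2 and ERO1A lay within the gene. Those of P4HA1 and P4HB crossed its start. Upstream therefore refers to the RefSeq start alone, and other starts were not searched. A match is a run of letters and not a measured binding site, and no binding was measured here.

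Hypoxia in siControl cells raised 6 of the 8 genes: P4HA1, P4HA2, PLOD1, PLOD2, LOXL2 and ERO1A passed the test upward, P4HB and PLOD3 did not pass it, and none fell. Without PLOD2, which the filter let in through its high group, 5 of 7 rose. In all, 10.4% of the tested genes were called up and 14.9% down in the same comparison (edgeR, adjusted p under 0.05). The median log2 fold change of the 8 genes was 0.79 (0.68 without PLOD2), against 0.02 over all 16999 genes tested. As the members were chosen with earlier results of these data known, these contrasts with all genes are descriptions and not tests. In siARNT cells hypoxia raised 1 of the 8, P4HA1, with 2.21% of the tested genes called up and 1.89% down. The median of the 8 was -0.04 there, as was that of all genes. With correction for GC content ERO1A was called as well, and 2020 of the tested genes were called up and 1637 down. The difference between these responses, tested as an interaction, was called downward for P4HA1, PLOD2 and ERO1A, and with GC correction for P4HA2 and PLOD1 as well. In the interaction without GC correction 2.19% of the tested genes were called down and 2.49% up. With GC correction 1497 of the tested genes were called down and 1645 up. PLOD2 passed the filter only through hypoxia siControl, so its interaction call is favoured by the filter. The libraries of the 2 groups did not overlap in CPM for 7 members with hypoxia in siControl, PLOD2 among them, all higher in hypoxia. In that comparison 21.5% of the tested genes lay higher and 25.3% lower without overlap. With hypoxia in siARNT this held for 2 members (P4HA1 and ERO1A), against 11.5% of genes higher and 10.7% lower.

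**Figure D1:**
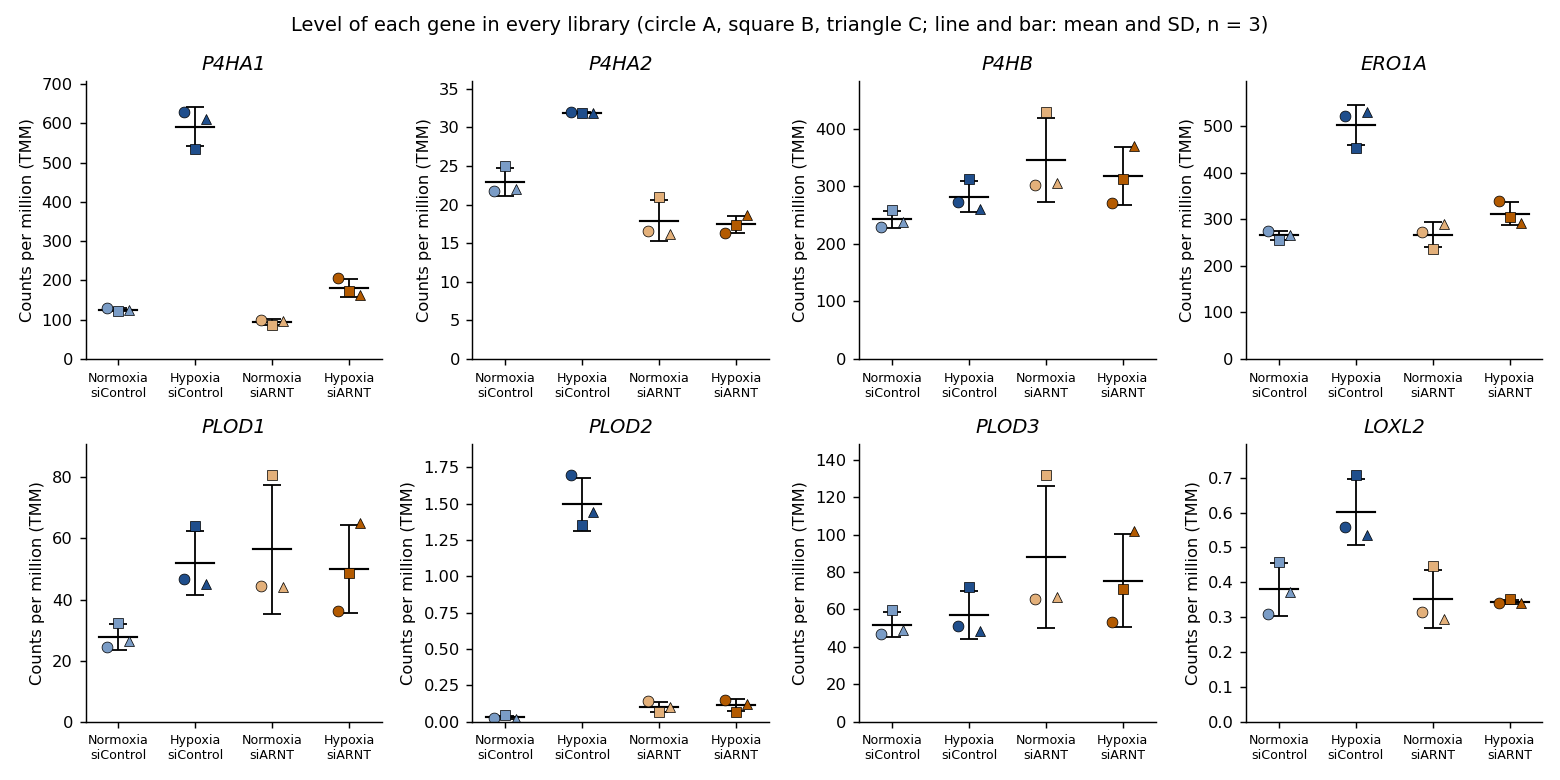
Level of each gene in CPM in every library, by group; circles, squares and triangles are replicates A, B and C, and the line and bar give the mean and SD (n = 3). P4HA1, P4HA2, PLOD2, LOXL2 and ERO1A stand highest in hypoxia siControl with no overlap with any other group, and PLOD2 passed the filter on low counts only through that group. PLOD1, PLOD3 and P4HB have their highest value in normoxia siARNT B.

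P4HA1 (ENSG00000122884.8; chr10:73007217-73096974 on GRCh38, GENCODE 29), the catalytic alpha subunit, stood at 129, 121 and 126 CPM in replicates A, B and C of normoxia siControl and at 629, 534 and 612 CPM in hypoxia siControl. In siARNT it stood at 99.6, 86.1 and 97.9 CPM in normoxia and at 205, 174 and 163 CPM in hypoxia. The 4 groups did not overlap, and hypoxia siControl stood apart above the rest. The hypoxia change was 4.73-fold in siControl (log2 fold change 2.24, SE 0.0968, edgeR adjusted p 8.96e-08), and 42 of the 16999 genes tested rose more on this scale. In siARNT the same change was 1.91-fold (0.94, SE 0.0937, edgeR adjusted p 0.000939). The interaction was -1.31 (SE 0.132, edgeR adjusted p 0.000235), with no overlap between the 2 changes over any alternative run, in which the siControl change ran from 2.19 to 2.33 and the siARNT change from 0.86 to 1.00. Knockdown lowered P4HA1 in normoxia too, by a log2 fold change of -0.40 (edgeR adjusted p 0.0117), and by -1.71 in hypoxia (edgeR adjusted p 2.24e-07).

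P4HA2 (ENSG00000072682.14; chr5:132191838-132295315), the second alpha subunit, was scarcer per length than P4HA1. It stood at 21.8, 25 and 22 CPM in normoxia siControl and at 32.0, 31.8 and 31.9 CPM in hypoxia siControl. In siARNT it stood at 16.6, 21.0 and 16.2 CPM in normoxia and at 16.3, 17.4 and 18.6 CPM in hypoxia. The siControl groups did not overlap, the siARNT groups did, and all 6 siARNT libraries lay below all 6 siControl libraries. Hypoxia raised P4HA2 1.39-fold in siControl (log2 fold change 0.48, SE 0.102, edgeR adjusted p 0.00479), and the change in siARNT was -0.04 (edgeR adjusted p 0.84). The interaction of -0.52 did not pass the test (SE 0.144, edgeR adjusted p 0.0657), but passed in 4 of 19 alternatives, among them GC correction (-0.55, edgeR adjusted p 0.00263) and DESeq2 (-0.52, DESeq2 adjusted p 0.0211). Over all alternatives its adjusted p ran from 0.000996 to 0.172. Knockdown lowered P4HA2 by -0.36 in normoxia (edgeR adjusted p 0.0309) and by -0.87 in hypoxia (edgeR adjusted p 6.63e-05). The normoxia call was lost when 1 of 5 libraries was left out: any replicate of normoxia siControl, or A or C of normoxia siARNT, with values from -0.41 to -0.29 and edgeR adjusted p from 0.0509 to 0.0984 (0.000733 to 0.0984 over all alternatives). The strand setting of the counter is not stated, and GENCODE 29 places genes on the other strand within P4HA2 (P4HA2-AS1 among them) and within every other member but PLOD1, so reads of those genes cannot be told apart with certainty.

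P4HB (ENSG00000185624.10; chr17:81843159-81860694), the beta subunit of prolyl 4-hydroxylase and a disulfide isomerase, did not pass the test in either hypoxia comparison. It stood at 230, 259 and 238 CPM in normoxia siControl and at 273, 312 and 260 CPM in hypoxia siControl. In siARNT it stood at 302, 429 and 306 CPM in normoxia and at 271, 312 and 370 CPM in hypoxia. The siControl groups just failed to overlap, the siARNT groups overlapped, and the highest value was that of normoxia siARNT B. The hypoxia change was 0.22 in siControl (edgeR adjusted p 0.312) and -0.12 in siARNT (edgeR adjusted p 0.654). With GC correction the siControl change was smaller, at 0.09, but was called (edgeR adjusted p 0.0487; 0.0357 to 0.58 over all alternatives). Knockdown in normoxia raised P4HB by 0.51 (SE 0.145, edgeR adjusted p 0.0307), and the 3 siARNT libraries lay above the 3 siControl ones. That call was lost when normoxia siARNT B was left out (0.32, edgeR adjusted p 0.089) and when any replicate of normoxia siControl was (0.46 to 0.56, edgeR adjusted p 0.0535 to 0.117). With GC correction the value was 0.13 (edgeR adjusted p 0.0147), with a range of 0.00603 to 0.117 over all alternatives. In hypoxia the knockdown change was 0.17 (edgeR adjusted p 0.415).

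ERO1A (ENSG00000197930.8; chr14:52639916-52695900), the oxidase that recharges PDI, stood at 274, 255 and 266 CPM in normoxia siControl. It stood at 522, 452 and 530 CPM in hypoxia siControl. In siARNT it stood at 273, 237 and 290 CPM in normoxia and at 340, 305 and 291 CPM in hypoxia. All 3 hypoxia siControl libraries lay above the other 9, while the lowest hypoxia siARNT library lay only just above the highest normoxia siARNT one. Hypoxia raised ERO1A 1.89-fold in siControl (log2 fold change 0.92, SE 0.0892, edgeR adjusted p 2.61e-05). In siARNT the change was 0.23 (SE 0.0886) and did not pass the test (edgeR adjusted p 0.169), although it did with GC correction (0.21, edgeR adjusted p 0.000678; its range over all alternatives was 0.000576 to 0.415). The interaction was -0.69 (SE 0.125, edgeR adjusted p 0.0106). The knockdown difference of ERO1A was 0.01 in normoxia (edgeR adjusted p 0.951), or 0.15 with GC correction (edgeR adjusted p 0.00309, a call; 0.00243 to 0.997 over all alternatives). Knockdown lowered it by -0.68 in hypoxia (edgeR adjusted p 0.000139).

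PLOD2 (ENSG00000152952.7; chr3:146069440-146163653), the lysyl hydroxylase of collagen telopeptides, gave the largest fold change of the set with hypoxia in siControl, from the lowest baseline. It held 2, 2 and 1 counts in normoxia siControl and 113, 63 and 67 counts in hypoxia siControl, which is 1.7, 1.35 and 1.44 CPM in hypoxia. In siARNT it held 12, 4 and 5 counts in normoxia and 8, 3 and 5 counts in hypoxia. Only the hypoxia siControl libraries rose above 12 counts, and the siARNT groups overlapped. Pooled over replicates and scaled by library size, the level in hypoxia siControl was 53.1 times that in normoxia siControl, with an exact 95% counting interval of 22.4 to 165 (243 against 5 counts). The pooled ratio of hypoxia to normoxia in siARNT was 1.08 (interval 0.529 to 2.18). Molecular identifiers were not part of these libraries as far as the labels say, so the intervals hold for counting error alone.

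In the fit across all genes the hypoxia change of PLOD2 in siControl was 5.60 on the log2 scale (SE 0.333, edgeR adjusted p 7.62e-07). The interaction was -5.48 (SE 0.558, edgeR adjusted p 0.000235). Both values depend on the prior count of the fit, as the baseline group held 1 or 2 counts per library. PLOD2 entered the test through the group in which it was high, so these adjusted p-values are favoured by the filter, and no rank among the tested genes is given. Knockdown lowered PLOD2 in hypoxia by -3.66 (edgeR adjusted p 2.07e-06), a pooled ratio of siARNT to siControl of 0.0768 (exact 95% interval 0.0432 to 0.127). In normoxia PLOD2 was higher with siARNT (1.81, SE 0.487, edgeR adjusted p 0.0241), at 21 against 5 pooled counts and a ratio of 3.76 (exact 95% interval 1.38 to 12.8). The normoxia call was lost when normoxia siControl A or C or normoxia siARNT A was left out (1.45 to 1.73, edgeR adjusted p 0.102 to 0.131), and in DESeq2 (1.88, DESeq2 adjusted p 0.0582), with a range of 0.00925 to 0.131 over all alternatives.

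PLOD1 (ENSG00000083444.12; chr1:11934205-11975538), the lysyl hydroxylase of the collagen helix, stood at 24.4, 32.4 and 26.3 CPM in normoxia siControl and at 46.7, 64.0 and 45.1 CPM in hypoxia siControl. In siARNT it stood at 44.6, 80.9 and 44.0 CPM in normoxia and at 36.4, 48.6 and 65.1 CPM in hypoxia. The baseline group lay below all 9 other libraries, and those 9 overlapped across their groups. Hypoxia raised PLOD1 1.88-fold in siControl (log2 fold change 0.91, SE 0.267, edgeR adjusted p 0.0274), and knockdown raised it 2.04-fold in normoxia (1.03, SE 0.267, edgeR adjusted p 0.0219). In siARNT the hypoxia change was -0.18 (edgeR adjusted p 0.725), and in hypoxia the knockdown change was -0.06 (edgeR adjusted p 0.898). The interaction of -1.08 did not pass the test (SE 0.374, edgeR adjusted p 0.131), whereas with GC correction it did (-0.75, edgeR adjusted p 0.0018; over all alternatives the adjusted p ran from 4.87e-05 to 0.373).

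Both PLOD1 calls rested on few libraries. The hypoxia call in siControl was lost without normoxia siControl A (0.83, edgeR adjusted p 0.0955), normoxia siControl C (0.88, 0.0839) or hypoxia siControl B (0.75, 0.097). The normoxia knockdown call was lost without normoxia siControl A (0.92, edgeR adjusted p 0.0918), normoxia siControl C (0.98, 0.0818) or normoxia siARNT B (0.67, 0.053), and GC correction lowered it to 0.61 (edgeR adjusted p 0.000307). The adjusted p over all alternatives lay between 2.24e-07 and 0.117 for hypoxia in siControl, and between 4.3e-06 and 0.0918 for knockdown in normoxia.

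PLOD3 (ENSG00000106397.7; chr7:101205977-101218420), a lysyl hydroxylase that also adds glucose and galactose to collagen, was called in 0 of the 5 comparisons by edgeR with all libraries and no further correction (1 had an unadjusted p under 0.05), and in 1 by DESeq2. It stood at 47.0, 59.7 and 49.1 CPM in normoxia siControl and at 51.0, 72.0 and 48.5 CPM in hypoxia siControl. In siARNT it stood at 65.7, 132 and 66.4 CPM in normoxia and at 53.2, 70.9 and 102 CPM in hypoxia. Each hypoxia group overlapped its normoxia group, and normoxia siARNT lay above normoxia siControl. The hypoxia change was 0.14 in siControl (SE 0.295, edgeR adjusted p 0.779) and -0.08 with GC correction. Knockdown gave 0.76 in normoxia (SE 0.295, edgeR adjusted p 0.0841) and 0.40 in hypoxia (SE 0.295, edgeR adjusted p 0.355). With GC correction these were 0.15 (edgeR adjusted p 0.068) and 0.27 (edgeR adjusted p 0.00138, a call). The normoxia difference was called in 3 of 19 alternatives, among them DESeq2 (0.76, DESeq2 adjusted p 0.0243). Over all alternatives the adjusted p lay between 0.0243 and 0.353 in normoxia and between 0.000424 and 0.815 in hypoxia.

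LOXL2 (ENSG00000134013.11), a secreted amine oxidase that begins collagen cross-links, was low in every library. It held 23, 21 and 20 counts in normoxia siControl and 37, 33 and 25 counts in hypoxia siControl. In siARNT it held 27, 26 and 15 counts in normoxia and 18, 15 and 14 counts in hypoxia. On the CPM scale hypoxia siControl (0.537 to 0.709 CPM) lay above all other libraries (0.294 to 0.459 CPM). Hypoxia raised LOXL2 in siControl by 0.68 (SE 0.223, edgeR adjusted p 0.0431), and knockdown lowered it in hypoxia by -0.80 (SE 0.234, edgeR adjusted p 0.0232). The hypoxia call was lost in 13 of 20 alternatives. It did not hold in DESeq2 (0.69, adjusted p 0.147), without the filter on low counts (0.69, edgeR adjusted p 0.134), or with 1 of 8 libraries left out: normoxia siControl A or C, normoxia siARNT A or C, hypoxia siControl A or B, and hypoxia siARNT B or C. In those 8 fits it ran from 0.54 to 0.73, with edgeR adjusted p from 0.0515 to 0.167. The hypoxia knockdown call was lost without hypoxia siControl B or any replicate of hypoxia siARNT (-0.81 to -0.69, edgeR adjusted p 0.0576 to 0.0661) and in DESeq2 (-0.80, DESeq2 adjusted p 0.0901). The adjusted p over all alternatives lay between 0.0286 and 0.167 for hypoxia and between 0.00475 and 0.0901 for knockdown in hypoxia. Neither the change in siARNT (-0.03) nor the interaction (-0.71, edgeR adjusted p 0.248) passed the test.

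**Figure D2:**
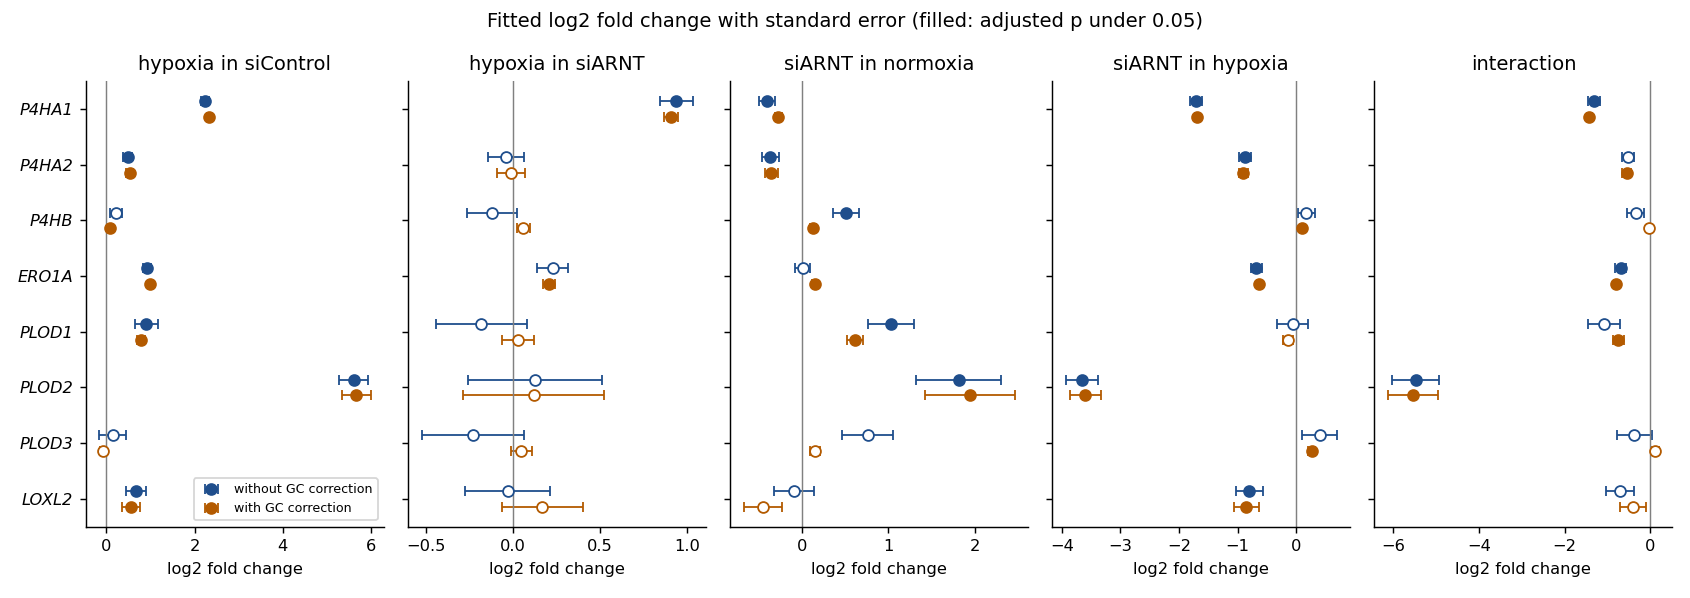
Fitted log2 fold change of each gene with its standard error in the 5 comparisons, without (blue) and with (orange) correction for the GC content of genes; filled points have an adjusted p under 0.05. Correction leaves P4HA1, P4HA2, PLOD2 and ERO1A close to their first values in hypoxia siControl and moves PLOD1 and P4HB toward 0 in siARNT normoxia (1.03 to 0.61 and 0.51 to 0.13).

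The knockdown comparisons gave these counts. In normoxia 3 members were called up with siARNT (P4HB, PLOD1 and PLOD2) and 2 down (P4HA1 and P4HA2), against 9.42% of the tested genes up and 10.8% down, and with 1 library left out the count of called members ran from 1 to 5. In hypoxia 5 members were called down (P4HA1, P4HA2, PLOD2, LOXL2 and ERO1A) and none up, against 14.7% of the tested genes down and 14.4% up. Of these, PLOD2 passed the filter on low counts only through hypoxia siControl. Its call and its lack of overlap in hypoxia are therefore favoured by the filter. Libraries did not overlap for 6 members in normoxia (4 higher with siARNT and 2 lower, against 23.2 and 23.3% of the tested genes), and for the 5 called members in hypoxia (all lower, against 20.2% of genes lower). The median of the 8 was 0.26 in normoxia (0.01 without PLOD2) and -0.74 in hypoxia (-0.68 without PLOD2). These comparisons use the same libraries as the hypoxia comparisons.

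The spread of PLOD1, PLOD3 and P4HB within a group moved with the GC tilt of the library. Their transcripts have a GC content of 58.6%, 61.7% and 58.4%, and after the group means were removed their log2 level correlated with the library's GC slope at r = 1.00 in each case over the 12 libraries. P4HA1, at 40.8% GC, gave r = -0.92, and ERO1A, at 38.7%, gave -0.95. The slope was computed from all tested genes of the same libraries, so these correlations describe shared library properties and are not tests. The slope also differed between groups, from a range of -0.21 to -0.041 in normoxia siControl to a range of -0.006 to 0.424 in normoxia siARNT. The part of this tilt in the group differences of PLOD1, PLOD3 and P4HB was measured only through the corrected values given with each gene.

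**Figure D3:**
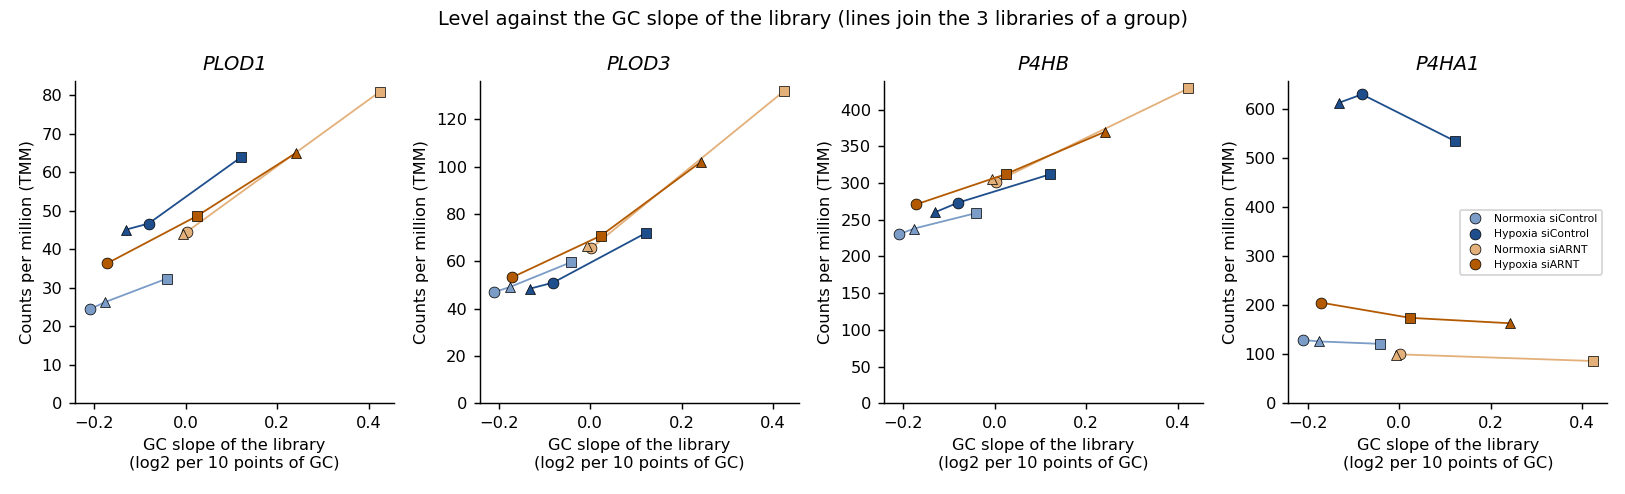
Level of PLOD1, PLOD3, P4HB and P4HA1 in CPM against the GC slope of each library (log2 units per 10 points of GC content); colours are groups, marker shapes are replicates A, B and C, and lines join the 3 libraries of a group. PLOD1, PLOD3 and P4HB climb with the slope within each group, except that replicates A and C of normoxia siARNT, whose slopes are close (0.003 and -0.006), stand in the other order for PLOD3 and P4HB, and P4HA1 stands far higher in hypoxia siControl at every slope.

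To compare the genes with each other, levels were divided by the length of each gene's merged exons and are given as CPM per kb. The lengths came from GENCODE 29, and the annotation used for the counts is not known and may differ from it. In normoxia siControl P4HB led with 45.7 ± 2.85 CPM per kb, followed by P4HA1 at 40.5 ± 1.23 and ERO1A at 35.1 ± 1.3 (SD, n = 3). PLOD3 (9.16 ± 1.2), PLOD1 (5.21 ± 0.79) and P4HA2 (2.70 ± 0.215) came next, and LOXL2 (0.0666 ± 0.0132) and PLOD2 (0.00389 ± 0.00168) were lowest. No neighbours in this order overlapped over the 3 libraries. In hypoxia siControl P4HA1 led with 191 ± 16.4 CPM per kb, above ERO1A at 66.4 ± 5.68 and P4HB at 53.2 ± 5.15, and PLOD3 (10.1 ± 2.28) and PLOD1 (9.76 ± 1.97) overlapped. PLOD2 passed LOXL2 there, at 0.196 ± 0.024 against 0.105 ± 0.0164.

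In normoxia siARNT P4HB led again (65.2 ± 13.6 CPM per kb), ERO1A (35.3 ± 3.54) overlapped P4HA1 (30.6 ± 2.38), and PLOD3 (15.6 ± 6.76) overlapped PLOD1 (10.6 ± 3.97). In hypoxia siARNT P4HB (59.9 ± 9.43) and P4HA1 (58.4 ± 7.04) overlapped. P4HA2, LOXL2 and PLOD2 were the lowest there, in that order. With the length of the longest transcript in place of merged exons, ERO1A (50.1 ± 1.85) stood above P4HA1 (44.0 ± 1.34) in normoxia siControl, and P4HB (108 ± 10.5) above ERO1A (94.8 ± 8.11) in hypoxia siControl. Other neighbouring pairs kept their order.

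P4HA1 is made in forms that differ by a choice between alternative coding exons. Of the 2 exons, 71 bases each, GENCODE 29 places the upstream one at chr10:73044981-73045051 (in 2 transcripts) and the downstream one at chr10:73043887-73043957 (in 3 transcripts) on GRCh38, both coding, and no transcript holds both. Their sequences, from GENCODE 29 transcripts on the minus strand, agree in place at 43 of 71 bases (60.6%), and capitals mark the bases that agree.

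P4HA1 upstream exon: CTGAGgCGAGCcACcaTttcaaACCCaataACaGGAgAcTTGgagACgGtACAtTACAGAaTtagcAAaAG
P4HA1 downstream exon: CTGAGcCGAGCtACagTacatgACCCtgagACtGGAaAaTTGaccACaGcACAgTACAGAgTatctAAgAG

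The event files give this pair at 74804739 to 74804809 and 74803645 to 74803715 of chromosome 10, in a build that the files do not name, and the pair was matched to GENCODE by exon length and by its spacing of 1094 bases. Use of the downstream exon was read from the junctions that leave the exons toward the next exon. In replicates A, B and C the downstream exon gave 57.8, 64.6 and 57.4% of these reads in normoxia siControl and 60.2, 59.6 and 59.8% in hypoxia siControl. It gave 62.9, 60.9 and 65.1% in normoxia siARNT and 61.1, 63.2 and 61.7% in hypoxia siARNT. Normoxia siControl overlapped the other 3 groups, all 6 siARNT libraries lay above the 3 of hypoxia siControl, and all 12 values lay between 57.4 and 65.1%.

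These shares rest on 252 to 2109 junction reads per library. Mean use of the downstream exon was 59.9% ± 4.05 in normoxia siControl and 59.9% ± 0.306 in hypoxia siControl (SD, n = 3), while the level of P4HA1 rose 4.73-fold. The log2 ratio of downstream to upstream exon reads differed by 0.00 with hypoxia in siControl, with a 95% interval of -0.54 to 0.53 (limma adjusted p 1.00). With hypoxia in siARNT it differed by -0.06 (interval -0.59 to 0.47, limma adjusted p 0.982). With siARNT it differed by 0.18 in normoxia (interval -0.35 to 0.72, limma adjusted p 0.902) and by 0.13 in hypoxia (interval -0.41 to 0.66, limma adjusted p 0.923). A change within these bounds could not be told from none at this spread. At the junctions from the previous exon the downstream exon took 55.6 to 65.6% of reads. Reads joining both exons numbered 2 to 57 per library.

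**Figure D4:**
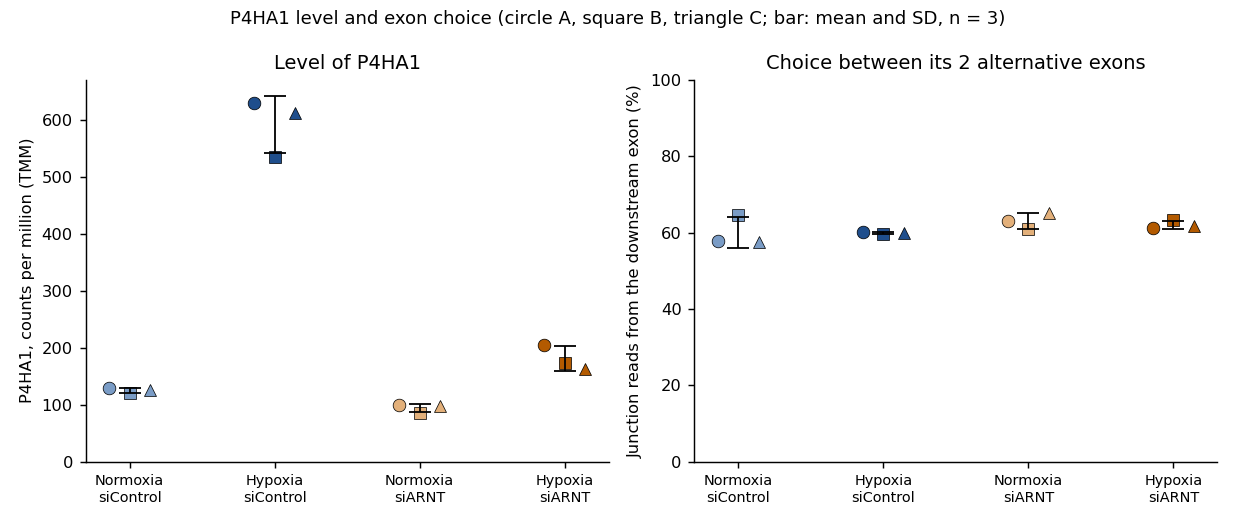
Left, P4HA1 in CPM by group; right, the percent of P4HA1 junction reads toward the next exon that came from the downstream of its 2 alternative exons; points are libraries (circle A, square B, triangle C) and bars give mean and SD (n = 3). The level differs between all groups, while exon use stays between 57.4 and 65.1% in all 12 libraries.

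Of the 48 events listed in the members, 41 had at least 10 reads in every library and were tested: 12 in P4HB, 10 in ERO1A, 9 in P4HA1, 6 in PLOD3 and 4 in P4HA2. None was called in any of the 5 comparisons by limma, and none by edgeR. By limma 2 of the 41 had an unadjusted p under 0.05 with hypoxia in siControl, 2 with hypoxia in siARNT, 0 with siARNT in normoxia, 2 with siARNT in hypoxia and 1 in the interaction. Over all 45856 events tested, limma called 0.0349% and 0.0371% with hypoxia (siControl and siARNT), 0.0196% and 0.0327% with siARNT (normoxia and hypoxia) and 0.0436% in the interaction. EdgeR called 0.00242% of 41252 events in each hypoxia comparison, 0.00485% with siARNT in hypoxia and 0.0% in the other comparisons. In data simulated for hypoxia in siControl over 21296 exon skips, the limma test recovered 11% of changes of 2 log2 units and edgeR 61%. Those changes were put only into well-covered exon skips in which neither form was rare, with a set spread between libraries. Smaller changes and other kinds of event were not simulated. The recovered shares therefore do not describe the 34 of the 41 tested events in which 1 form held more than 90% of the reads.

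In 34 of the 41 tested events 1 form held more than 90% of the reads by the median over libraries. A 12-base exon of ERO1A was included in 94.4 to 96.6% of reads. A 138-base exon of P4HB was included in 85.8 to 89.9% of reads in 1 listed event. In another event, with the same exon and other bounds of a neighbouring exon, it was included in at least 99.7%. The skipped share of this P4HB exon therefore depended on the event used. The PLOD2 exon of 63 bases listed as skipped had between 0 and 3 skipping reads per library and was not tested. An acceptor of P4HA1 that lies 4 bases away from the main one was used in 1.4 and 1.9% of reads in hypoxia siARNT A and C (13 and 10 reads) and in 0 reads of the other 10 libraries. With all 12 libraries its log2 ratio with knockdown in hypoxia was 4.98 (limma adjusted p 0.25), and without hypoxia siARNT B it was 6.43 (limma adjusted p 0.000655). Over all alternatives its adjusted p ran up to 0.851, in edgeR.

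The members were set beside other genes of the same route. Counts in these lists stand against the shares of all tested genes called. With hypoxia these shares were 10.4% up and 14.9% down in siControl, and 2.21% up and 1.89% down in siARNT. For siARNT they were 9.42% up and 10.8% down in normoxia, and 14.4% up and 14.7% down in hypoxia. Whether a list as a whole differed from these shares was not tested. Of 12 tested genes for prolyl 3-hydroxylation, glycosylation, chaperoning and export of collagen, 1 rose and 2 fell with hypoxia in siControl, with a median of -0.05. P3H2, a prolyl 3-hydroxylase, rose by 0.46 (edgeR adjusted p 0.00246), and TMEM38B, an ion channel of the endoplasmic reticulum, and FKBP14, a collagen prolyl isomerase, fell by -0.56 and -0.51 (edgeR adjusted p 0.000172 and 9.86e-05). With hypoxia in siARNT 0 of the 12 were called by edgeR or DESeq2 (2 had an unadjusted edgeR p under 0.05). Knockdown in hypoxia raised 5 and lowered 2 of them, among them the collagen galactosyltransferase COLGALT1 (0.63, edgeR adjusted p 0.00217) and P3H2 (-0.53, edgeR adjusted p 0.00084).

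Among 9 tested genes of collagen processing and cross-linking, 3 rose with hypoxia in siControl and none fell, with a median of 0.18. LOXL4, a relative of LOXL2, stood at 4.48 ± 0.216 CPM in normoxia siControl, 9.60 ± 0.604 in hypoxia siControl, 4.27 ± 0.285 in normoxia siARNT and 4.16 ± 0.201 in hypoxia siARNT (SD, n = 3). It rose 2.14-fold in siControl (log2 fold change 1.10, edgeR adjusted p 1.35e-05), and its interaction of -1.14 was called (edgeR adjusted p 0.000848). MEP1A, a procollagen-cleaving protease, rose by 1.11 (edgeR adjusted p 0.00029). PCOLCE, an enhancer of procollagen cleavage, rose by 1.45 (edgeR adjusted p 0.011), a call lost without normoxia siControl A (1.35, edgeR adjusted p 0.0501; 5.26e-05 to 0.0501 over all alternatives). The transglutaminase TGM2, a cross-linking enzyme, was higher with siARNT in normoxia (0.93, edgeR adjusted p 0.00594) and in hypoxia (0.90, edgeR adjusted p 0.00354).

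Among 26 tested disulfide isomerases and oxidases other than P4HB and ERO1A, 2 rose and 8 fell with hypoxia in siControl, with a median of -0.12. The count that fell was 5 without normoxia siControl A or C or hypoxia siControl B, and the count that rose was 1 without normoxia siControl B. With hypoxia in siARNT edgeR called 0 of them (2 had an unadjusted p under 0.05) and DESeq2 called 1. The risers were QSOX1, a sulfhydryl oxidase (2.18-fold, edgeR adjusted p 0.0037), and ERO1B, the sister of ERO1A (0.52, edgeR adjusted p 0.0173). The ERO1B call was lost without normoxia siControl B (0.41, edgeR adjusted p 0.0726), in DESeq2 (0.53, DESeq2 adjusted p 0.0748) and in 2 further alternatives, with adjusted p up to 0.106. The largest falls were in DNAJC10, a disulfide reductase (-0.80, edgeR adjusted p 0.000184), and AGR2, an isomerase of mucin-making cells (-0.68, edgeR adjusted p 0.000459). With knockdown in hypoxia 10 rose and 4 fell, against 14.4% of the tested genes up and 14.7% down. QSOX1 (-1.06, edgeR adjusted p 0.00459) and ERO1B (-0.94, edgeR adjusted p 0.000589) were among those that fell.

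Of 20 tested chaperones and stress genes of the endoplasmic reticulum, edgeR called 3 down and 0 up with hypoxia in siControl, with a median of 0.01 (DESeq2 called 2 down and 0 up). The share called down by edgeR was close to that of all tested genes (14.9%). The count called down was 1 without normoxia siControl A or C or hypoxia siControl A or B, and 5 without normoxia siARNT B. DNAJB11, a partner of the chaperone BiP, fell by -0.46 (edgeR adjusted p 0.000252). EDEM1, which sends misfolded proteins to degradation, was higher with siARNT in normoxia (0.79, edgeR adjusted p 3.96e-06) and in hypoxia (0.96, edgeR adjusted p 2.94e-07).

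Of 16 tested collagen chains, the substrates of these enzymes, 4 rose with hypoxia in siControl and none fell, with a median of 0.46. The count was 1 without normoxia siControl C and 6 without normoxia siARNT B. It was 2 without normoxia siControl A or B, normoxia siARNT C, hypoxia siControl A or B, or hypoxia siARNT B. With hypoxia in siARNT 0 were called by edgeR or DESeq2 (2 had an unadjusted edgeR p under 0.05). COL17A1, a membrane collagen of epithelial cells, was the most abundant of those 4, at 1430 ± 69.2 CPM in normoxia siControl and 2000 ± 76.4 CPM in hypoxia siControl (SD, n = 3), a change of 0.48 (edgeR adjusted p 0.0126). COL5A3 rose by 1.00 (edgeR adjusted p 0.0236), a call lost without normoxia siControl A (0.86, 0.0911), normoxia siControl C (1.03, 0.0614) or hypoxia siControl B (0.77, 0.094), with adjusted p from 9.64e-05 to 0.094 over all alternatives. With siARNT in normoxia 7 chains were called up and none down, with a median of 0.46, against 9.42% of the tested genes up and 10.8% down. That count fell to 1 without normoxia siControl A or C or normoxia siARNT B, to 2 without normoxia siControl B and to 4 without hypoxia siARNT B. Without any 1 of the other libraries it was 5 to 8. COL28A1 was called there (1.07, edgeR adjusted p 0.000139) and with siARNT in hypoxia (0.82, edgeR adjusted p 0.000311). Its normoxia value stayed between 0.98 and 1.11 over all alternatives. GC correction took COL9A3, also called with siARNT in normoxia, from 1.05 to 0.16, and the call was lost (edgeR adjusted p 0.582). Over all alternatives COL6A1 (1.05) ran from 0.33 to 1.23 in that comparison and COL18A1 (1.82) from 0.85 to 2.09.

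The genes most like each member over the 12 libraries were found by the correlation of log2 levels among 9855 genes of at least 5 CPM. For P4HA1 they were KDM3A (r = 0.994) and BNIP3L (r = 0.994), and for PLOD2 DYNC2I1 (r = 0.996) and PDK1 (r = 0.99). For ERO1A they were PTPRB (r = 0.984) and TMCC1 (r = 0.98), and for LOXL2 TGFB1I1 (r = 0.966) and ADCY6 (r = 0.953). For P4HA2 they were SMURF1 (r = 0.988) and TMEM43 (r = 0.985). For P4HB they were PLXNA1 (r = 0.997) and PTPRF (r = 0.996), for PLOD1 TOB2 (r = 0.992) and RETREG2 (r = 0.986), and for PLOD3 ACTN4 (r = 0.997) and ESPL1 (r = 0.995). All points share libraries, depth and GC tilt, and the values are descriptions of 12 libraries in 4 groups.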

How the data were processed

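Gene files hold counts, whole numbers of reads per gene ID deposited by the authors, one file per library. The authors' event files hold counts of junction reads, a signal of intron coverage and the inclusion share as a fraction (PSI), per the file headers. The submitters' processing notes name STAR 2.4.2a, Trimmomatic and GRCh38.p10, with no role given, but event coordinates do not match GRCh38, so they are printed as the files give them. The counter's strand setting is not given in the sources used here. Reads outside genes (22.71 to 25.2% per library) were left out. Replicates differed beyond sampling noise.

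Symbols were matched for 51996 of 57820 IDs. The test for genes was that of edgeR 4.0.16 under R 4.3.3 (TMM, filterByExpr, robust quasi-likelihood, 4 group means over 12 libraries), with Benjamini-Hochberg adjustment over 16999 genes within a comparison. A call is an adjusted p under 0.05. The interaction subtracts the siControl response to hypoxia from the siARNT response. Log2 ratios of inclusion to exclusion reads (0.5 added to each) were tested with limma 3.58.1 in events with at least 10 reads in every library. The downstream and upstream exons of P4HA1 were compared at single junctions, chosen after seeing the data. GC correction used a smooth curve per library over the GC content of the longest GENCODE 29 transcript (97.3% of genes). On simulated data the gene test was checked to recover known changes. Those data had a set spread, equal for all genes, and no GC tilt, unlike these libraries. The check therefore does not measure recovery in these libraries.

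Alternatives were DESeq2 1.42.0, total count scaling, no filter, GC correction, the replicate letter or the transfected culture as a block, only the compared samples, stricter limits and each library left out. Stricter limits were applied only to counts of called members and member events. The culture block took libraries of the same siRNA and letter as sharing a culture, which the labels do not state.

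Named genes were the 8 members, every tested event of theirs, ARNT, from each list at most 4 called genes with the largest change per comparison, and the 2 most similar genes per member. Members and lists were chosen with earlier results of these data known. LOXL2 sequence is not reported here.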

Additional observations from a re-analysis of the deposited data

Results flagged for a closer look

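The hypoxia change differed between siARNT and siControl, by the interaction term of the edgeR fit, for 3 of the 8 members and for 6 other named genes. In the interaction 2.19% of the tested genes were called down and 2.49% up. The 6 were named because they were called, from lists of 12, 9, 26, 20 and 16 tested genes. The difference, siARNT minus siControl on the log2 scale, was -1.31 for P4HA1 (edgeR adjusted p 0.000235), -5.48 for PLOD2 (edgeR adjusted p 0.000235) and -0.69 for ERO1A (edgeR adjusted p 0.0106). P4HA1 and ERO1A kept their call in all 19 alternative fits, and PLOD2 in all 18 that gave it a value. PLOD2 passed the filter on low counts only through hypoxia siControl, so its adjusted p is favoured by the filter.

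LOXL4 differed by -1.14 (edgeR adjusted p 0.000848) and was called in all 19 alternatives. QSOX1 differed by -1.43 (edgeR adjusted p 0.0298), a call lost in 8 of 19 alternatives, among them leaving out any library of normoxia siControl, hypoxia siControl A or B, or hypoxia siARNT A or B (adjusted p up to 0.121 over all).

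In the other direction, TMEM38B differed by 0.57 (edgeR adjusted p 0.00837), lost in 1 of 19 alternatives, with the culture as a replicate block (adjusted p 0.0519). DNAJC10 differed by 0.64 (edgeR adjusted p 0.028), lost when 1 of 6 libraries was left out: normoxia siControl A or C, hypoxia siControl A or B, or hypoxia siARNT A or B (adjusted p up to 0.0894). FKBP14 differed by 0.37 (edgeR adjusted p 0.0291), lost in 10 of 19 alternatives, among them leaving out any normoxia siControl library, normoxia siARNT A, or replicate A or B of either hypoxia group (adjusted p up to 0.205 over all). TMX2 differed by 0.34 (edgeR adjusted p 0.048), lost in 12 of 19, among them leaving out any normoxia library or replicate A or B of either hypoxia group (adjusted p up to 0.209 over all).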

How the results depend on the processing

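Of 20 member changes that were called, 13 kept their call and direction in every alternative fit, and none reversed. These fits all used the adjusted p limit of 0.05, and the stricter limits were not applied to single changes. The count of members called with hypoxia in siControl ran from 4 to 6 with 1 library left out, that for siARNT in hypoxia from 4 to 5, and those for hypoxia in siARNT and the interaction stayed at 1 and 3. For siARNT in normoxia it ran from 1 to 5, and was 3 with no filter on low counts, 3 with only the compared samples, 0 at the stricter adjusted p of 0.01, and 3 when changes under 0.5 log2 units were dropped. GC correction, with or without the replicate block, called 2 members for hypoxia in siARNT and 5 in the interaction. The replicate block alone moved no member count by over 1.5 times: it called 6 and 1 members for hypoxia (siControl, then siARNT), 6 and 5 for siARNT (normoxia, then hypoxia), 4 in the interaction, and 0 events. It added PLOD3 for siARNT in normoxia (0.71, edgeR adjusted p 0.0453) and P4HA2 in the interaction (-0.52, edgeR adjusted p 0.0457). The culture as a replicate block took libraries of the same siRNA and letter as sharing a culture, which is an assumption. It lost LOXL2 for hypoxia in siControl (0.67, edgeR adjusted p 0.0578), as did GC correction with the replicate block (0.56, edgeR adjusted p 0.0574). Libraries of the same letter correlated from -0.402 to 0.505 in their deviations from group means, and 6 of the 12 correlated best with a library of their own letter (what a letter shares is not stated in the labels). Among the 16999 genes tested, those called rose under GC correction from 4299 to 7298 and from 696 to 3657 for hypoxia (siControl, then siARNT), from 3431 to 5532 and from 4948 to 7824 for siARNT (normoxia, then hypoxia) and from 797 to 3142 in the interaction. The culture as a replicate block lowered 696 to 136 and 797 to 373, and only the compared samples lowered 696 to 22.

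With GC correction, and with GC correction and the replicate block, uncalled values changed sign. PLOD3 went to -0.08 and -0.08 (hypoxia in siControl), 0.05 and 0.05 (hypoxia in siARNT), and 0.12 and 0.13 (interaction). For hypoxia in siARNT P4HB went to 0.06 and 0.06, PLOD1 to 0.03 and 0.03, and LOXL2 to 0.17 and 0.17. Total count scaling took PLOD1 in siARNT in hypoxia to 0.03. It also moved the median of all genes there to 0.10 and took the share of calls that were upward from 49.6 to 63.8% (53.9 to 65.8% for hypoxia in siARNT, 53.2 to 75.3% for the interaction, where calls rose to 1495). The cause of these shifts was not tested.

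With 1 library left out, PLOD3 ran from -0.05 to 0.25 for hypoxia in siControl and from -0.65 to 0.06 in the interaction. For hypoxia in siARNT P4HA2 ran from -0.11 to 0.09, P4HB from -0.25 to 0.07, PLOD1 from -0.41 to 0.18, PLOD2 from -0.13 to 0.48, PLOD3 from -0.51 to 0.19 and LOXL2 from -0.13 to 0.17. For siARNT in normoxia LOXL2 ran from -0.29 to 0.06 and ERO1A from -0.05 to 0.08, and for siARNT in hypoxia PLOD1 from -0.29 to 0.14. For the P4HA1 downstream exon the log2 ratio with hypoxia in siControl ran from -0.10 to 0.13. Inclusion there was the mean of its junctions to the next exon and to the upstream exon. The single-junction ratio of downstream to upstream reads was not fitted with libraries left out. Member events called ran from 0 to 1 for hypoxia in siARNT, siARNT in hypoxia and the interaction, and were 0 elsewhere. Counts under 40 per library in LOXL2, and under 13 in 3 groups of PLOD2, limit both genes, and PLOD2 was not tested for hypoxia in siARNT or siARNT in normoxia with only the compared samples.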
